A study of Mus musculus with 7 samples.

Results

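Junctions between epithelial cells were followed here through 9 genes, the claudins Cldn1, Cldn3, Cldn4 and Cldn7, occludin (Ocln), the scaffold genes Tjp1 and Cgn, E-cadherin (Cdh1) and Epcam, in cells of the mouse mammary gland. The genes were chosen by symbol, and all 9 had 1 row each among the 27998 genes of the raw count matrix. Single cells came from the #4 abdominal glands, freed of lymph nodes, of 3 young (3 to 4 months) and 4 aged (13 to 14 months) nulliparous females of a mixed FVB, 129 and C57BL/6J background, all cycling and taken at diestrus. No treatment or transgene is named for these mice, the cells were not enriched by sorting, and each library held 1 mouse. The matrix held 13684 cells, which the authors had assigned to 13 cell types. The 4 epithelial types were the alveolar progenitor (AV) and hormone-sensing (HS) luminal cells, a small luminal type with markers of both (HS-AV), and the contractile myoepithelial cells that surround the luminal layer.

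In a simple epithelium the tight junction forms a belt at the apical end of the lateral membrane, where claudins set which ions and small solutes may pass between cells and occludin, a second family of membrane protein, lines the same strands. Tjp1 (ZO-1) and Cgn (cingulin) lie on the cytoplasmic side and tie these strands to actin and myosin, while Cdh1 holds neighbouring cells together in the adherens junction just below the belt. Epcam is an adhesion protein of most simple epithelia that binds claudins, and in the mammary gland tight junctions are known from the luminal layer, where they close during milk secretion. Myoepithelial cells lie on the basement membrane and have no apical surface.

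Transcription factors of the Snail and Zeb families silence several of these genes through an E-box of the letters CACCTG, and Grhl factors activate some of them through a core of the letters ACCGGT. The promoters of 8 of the 9 members were in the RefSeq promoter table of the GRCm38.p6 build (Cdh1 was not matched), as 250 bases before to 50 after a gene's start. Both strands were searched, and an E-box was present in 20.2% and a Grhl core in 2.33% of all 32851 promoters of that length. The promoters of Epcam and Cldn4, which had the smallest adjusted p of the members between young and aged myoepithelial cells, of Cldn3, the neighbour of Cldn4, and of Cgn, which differed in luminal cells, are printed 5′ to 3′ on the strand of the gene. Capitals mark each E-box (CACCTG, or CAGGTG on the other strand) and each Grhl core.
Epcam, chr17:87635729-87636028, plus strand: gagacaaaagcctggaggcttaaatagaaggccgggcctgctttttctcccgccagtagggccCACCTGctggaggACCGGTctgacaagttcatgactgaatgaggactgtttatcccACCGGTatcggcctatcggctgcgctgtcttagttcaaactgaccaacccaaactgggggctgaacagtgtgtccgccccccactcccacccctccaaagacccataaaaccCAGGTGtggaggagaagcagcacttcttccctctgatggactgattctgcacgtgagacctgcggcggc
Cldn4, chr5:134946885-134947184, minus strand: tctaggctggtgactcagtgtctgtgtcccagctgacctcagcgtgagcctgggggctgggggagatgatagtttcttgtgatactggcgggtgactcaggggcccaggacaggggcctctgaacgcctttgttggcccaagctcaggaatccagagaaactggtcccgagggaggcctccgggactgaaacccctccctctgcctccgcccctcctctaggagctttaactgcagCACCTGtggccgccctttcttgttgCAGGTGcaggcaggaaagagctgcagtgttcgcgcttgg
Cldn3, chr5:134985964-134986263, plus strand: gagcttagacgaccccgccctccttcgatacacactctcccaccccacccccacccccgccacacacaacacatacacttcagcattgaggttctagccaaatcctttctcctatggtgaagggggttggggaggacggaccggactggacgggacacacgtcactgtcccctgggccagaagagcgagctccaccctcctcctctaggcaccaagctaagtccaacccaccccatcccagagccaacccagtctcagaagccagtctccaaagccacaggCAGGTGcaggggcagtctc
Cgn, chr3:94786433-94786732, minus strand: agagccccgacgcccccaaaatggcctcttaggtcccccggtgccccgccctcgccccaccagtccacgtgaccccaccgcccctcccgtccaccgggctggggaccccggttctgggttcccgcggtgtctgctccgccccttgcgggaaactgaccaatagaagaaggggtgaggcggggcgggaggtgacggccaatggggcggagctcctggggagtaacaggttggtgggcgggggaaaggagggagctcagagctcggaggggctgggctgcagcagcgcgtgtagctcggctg
The window of Epcam held 2 E-boxes, starting 187 and 19 bases before the gene's start, and 2 Grhl cores between them. Cldn4 held 2 E-boxes, on either side of its start, and Cldn3 held 1, after its start. The first promoter of Ocln held 1 E-box and its second promoter 2, but these 2 windows overlap and the E-box of the first is also 1 of those in the second. The second of the 2 promoters of Cldn7 held 2. None of these letters lay in the windows of Cldn1, Tjp1, Cgn or the first promoter of Cldn7. Such matches describe letters in a window and not binding.

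By GENCODE vM21 on GRCm38, all 9 members are protein-coding genes. Cldn4 (chromosome 5, 134945119 to 134946934, minus strand) and Cldn3 (chromosome 5, 134986214 to 134987472, plus strand) are neighbours with 39279 bases between them. Epcam lies on chromosome 17 (87635979 to 87651129), Cgn on chromosome 3 (94760069 to 94786492), Cdh1 on chromosome 8 (106603351 to 106670246) and Ocln on chromosome 13 (100496507 to 100552718). Tjp1 lies on chromosome 7 (65296165 to 65527781), Cldn7 on chromosome 11 (69964779 to 69967885) and Cldn1 on chromosome 16 (26356642 to 26371841).

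Each mouse gave 1264 to 2865 cells and 6652599 to 16999625 unique molecular identifiers (UMIs), each of which stands for 1 captured mRNA molecule. The median cell of a mouse held 4758.5 to 7109.5 UMIs, and 101 cell barcodes occurred in more than 1 library. Scrublet called 73 cells (0.533%) doublets, 23 of them among the 1670 myoepithelial cells, and they were kept. Levels are UMIs per 1000000 UMIs of the cells of 1 type in 1 mouse (CPM), given as mean ± SD over mice. Young and aged libraries wrote their cell barcodes in different formats, so an age difference below cannot be told apart from a difference in how the libraries were processed. The labels name the mice as separate animals.

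Cldn3, Cldn4 and Cldn7 were highest in the luminal cells. Cldn3 was at 812 ± 29.1 CPM in AV cells (n = 7 mice) and 528 ± 81.8 CPM in HS cells (n = 7). It was higher in AV than in HS cells in 7 of 7 mice, and the means lay 3.46 times the larger SD apart. Myoepithelial cells held 33.2 ± 11.6 CPM and fibroblasts, which lack tight junctions, 31.3 ± 23.0 CPM of Cldn3. Cldn7 was at 306 ± 94.6 CPM in AV and 304 ± 44.5 CPM in HS cells, a gap far within its spread, and at 19.8 ± 15.4 CPM in myoepithelial cells. Cldn4, a claudin that tightens the paracellular path in many epithelia, was at 1654 ± 909 CPM in HS and 1391 ± 519 CPM in AV cells, and AV exceeded HS cells in 4 of 7 mice. Its level in HS cells was 3607 CPM in Aged A and 859 to 1767 CPM in the other mice. Cldn1 was the claudin with the lowest counts, with 599 UMIs in all AV cells and 21 in all HS cells. Its level was 16.8 ± 11.6 CPM in AV cells and 0 to 3.25 CPM in HS cells, and AV exceeded HS cells in 7 of 7 mice. The next type in order, dendritic cells, held 15.6 ± 27.5 CPM (n = 5), which does not differ from AV cells beyond the spread.

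Ocln stood at 58.2 ± 25.9 CPM in AV, 36.9 ± 18.6 CPM in HS and 9.18 ± 7.88 CPM in myoepithelial cells. AV exceeded HS cells in 6 of 7 mice, while the means were less than 1 SD apart. The scaffold Cgn was a luminal gene, at 41.0 ± 15.5 CPM in HS and 39.9 ± 17.7 CPM in AV cells against 2.91 ± 3.47 CPM in myoepithelial cells. Tjp1, the other scaffold, followed a different order. It was highest in vascular endothelial cells (70.0 ± 34.6 CPM) and pericytes (51.8 ± 21.3 CPM), which do not differ beyond their spread, and stood at 24.4 ± 7.47 CPM in AV, 20.8 ± 5.46 CPM in HS and 20.2 ± 7.61 CPM in myoepithelial cells.

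The adhesion genes were shared by all epithelial types. Cdh1 was at 104 ± 40.2 CPM in AV, 102 ± 17.0 CPM in HS and 79.3 ± 39.3 CPM in myoepithelial cells, and at 5.05 ± 3.85 CPM in fibroblasts. T and B cells held 76.6 ± 72.6 CPM of Cdh1 (n = 7), which does not differ from myoepithelial cells beyond the spread. Epcam reached 1740 ± 580 CPM in AV, 1611 ± 403 CPM in HS and 1207 ± 742 CPM in myoepithelial cells, and 56.5 ± 38.6 CPM in fibroblasts. In HS-AV cells (6 mice, 273 cells) every member lay within the larger SD of its level in AV cells, in HS cells or in both, and Cldn7 was at 216 ± 54.4 CPM, below HS cells in 6 of 6 mice. Ocln in HS-AV cells was at 13.5, 43.2 and 43.6 CPM in young mice and at 110, 183 and 86.9 CPM in Aged A, B and D, which held 6, 6 and 4 such cells, and this difference was not tested. Since the types were clustered from the same genes, these orders are descriptions without a test.

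**Figure D1:**
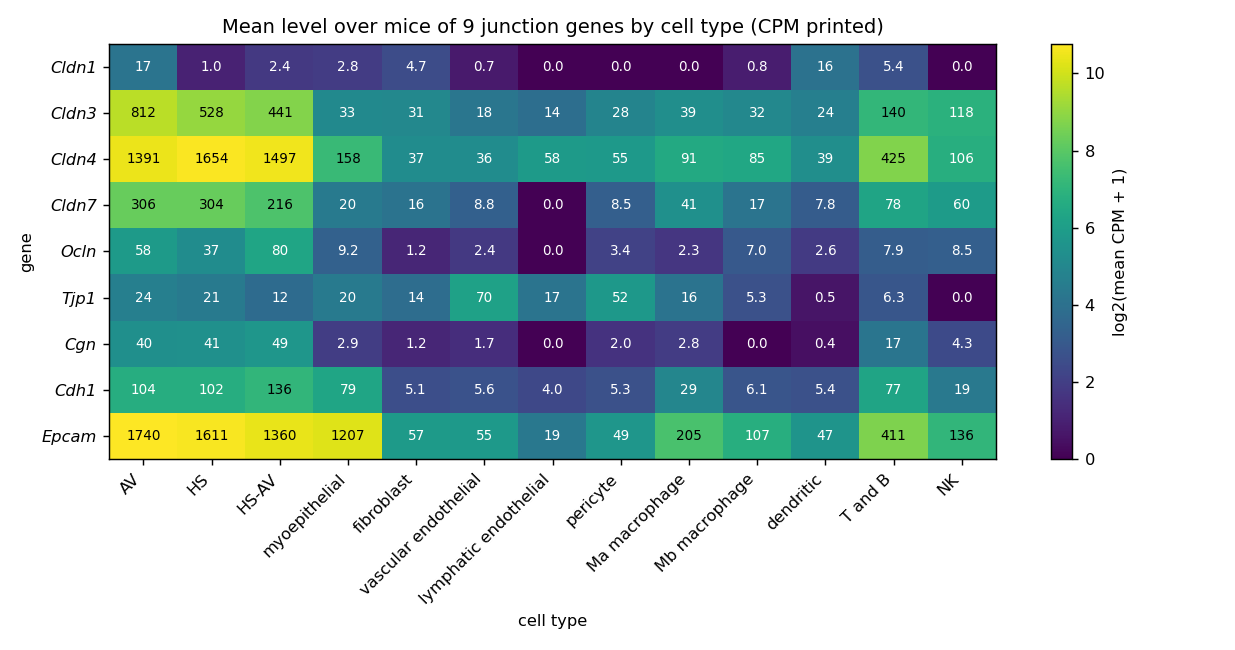
Mean CPM over mice with at least 3 cells of a type, for the 9 genes (rows) in the 13 cell types (columns), coloured as log2(mean CPM + 1). Cldn3, Cldn4, Cldn7, Ocln and Cgn are brightest in the luminal columns, and Cdh1 and Epcam also in myoepithelial cells. Cdh1 in T and B cells (76.6 CPM) is close to its myoepithelial mean (79.3 CPM). Cldn1 is highest in AV (16.8 CPM) and dendritic cells (15.6 CPM), and Tjp1 in vascular endothelial cells (70.0 CPM) and pericytes (51.8 CPM).

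Over the 13 cell types the mean profiles of Cldn4 and Cgn had a Pearson correlation of 0.979 and those of Cdh1 and Epcam of 0.959. Tjp1 correlated with the other 8 members at 0.0590 to 0.357. The 13 points share libraries and differ in cell number, so these are descriptions. Among 5292 genes with at least 50 CPM in 1 type, the genes outside the members whose profile was most like the mean of the members included Syne4 (0.983), Mapk13, Lad1, Rhov, Crb3, Rab25, Tnk2, Wnt7b and Elf3 (0.940). Crb3 is an apical polarity protein of tight junctions. The genes most like Cldn3, Cldn4 and Cldn7 were Il17re (0.979), Rab25 (0.965) and Smim22 (0.965), and most like Ocln, Cgn, Cdh1 and Epcam were Wnt7b (0.969), Rab25 (0.972), Kcnk1 (0.973) and Mapk13 (0.963). The best match of Tjp1 was Hk1 (0.957), and that of Cldn1 was Rps9 (0.840).

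RNA released from broken cells enters every droplet, so fibroblasts served as the measure of background. After thinning to 2000 UMIs per cell, with no cell left out for lower depth, Epcam was found in 90.0% of AV, 89.6% of HS and 81.2% of myoepithelial cells and in 6.37% of fibroblasts. Before thinning, the median cell of these types held 6632, 7277, 4431 and 4414 UMIs, and the shares were 99.2%, 99.5%, 93.1% and 11.8%. For Cldn3 the thinned share was 75.5% in AV and 61.2% in HS cells, but 4.07% in myoepithelial cells, below the 4.67% of fibroblasts (9.28% and 9.43% without thinning). Cldn7 likewise was found in 1.92% of myoepithelial cells and 1.76% of fibroblasts when thinned (4.79% and 4.16% without thinning). Neither claudin could thus be told from background in myoepithelial cells by these shares, which pool the cells of all mice. Of the 1670 myoepithelial cells 662 came from Aged B, and of the 1993 fibroblasts 1034 came from Young C. The pooled shares therefore compare cells from a different mix of ages and libraries. The mean number of members with a UMI in a thinned cell was 3.26 in AV, 3.13 in HS, 3.01 in HS-AV and 1.28 in myoepithelial cells, and 0.245 in fibroblasts.

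In the 60 T and B cells Epcam was at 411 ± 393 CPM, Cldn4 at 425 ± 416 CPM and Cdh1 at 76.6 ± 72.6 CPM (n = 7), above the means of fibroblasts but with a wide spread. Epcam ranged there from 31.6 CPM in Young B to 1106 CPM in Aged C. The keratins Krt8, Krt18 and Krt19 of luminal cells summed to 237 to 4563 CPM in the same cells of young mice and 2093 to 5085 CPM in those of aged mice. The part of luminal RNA in these member levels was not tested.

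In myoepithelial cells 4 members were higher in aged than in young mice. Epcam stood at 371, 472 and 484 CPM in Young A, B and C and at 2089, 1459, 1660 and 1911 CPM in Aged A to D. Every aged mouse lay far above every young one, and while AV cells held more Epcam than myoepithelial cells in 3 of 3 young mice, they did so in 2 of 4 aged mice. The log2 fold change was 2.13 (SE 0.21, adjusted p = 5.3e-06), a 4.38-fold difference. Cldn4 stood at 25.5, 49.2 and 45.4 CPM in the young and 247, 208, 326 and 205 CPM in the aged mice. The groups were again apart, with a log2 fold change of 2.88 (SE 0.28, adjusted p = 4.0e-06). Cdh1 stood at 30.2, 63.9 and 45.4 CPM in young and 152, 86.8, 90.8 and 86.1 CPM in aged mice. Aged A was the highest and the other 3 aged mice lay close together above Young B, and the log2 fold change was 1.42 (SE 0.29, adjusted p = 0.0017).

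Ocln in myoepithelial cells rested on few molecules, 4 UMIs in young mice, all in Young A, and 91 in aged mice. Its levels were 3.78, 0 and 0 CPM in young and 19.3, 11.4, 13.8 and 16.0 CPM in aged mice. It was called as well, with a log2 fold change of 2.62 (SE 0.61, adjusted p = 0.0044), and the ratio of the pooled levels was 5.59 with an exact 95% interval of 2.11 to 20.9 that covers counting error only. With 1 mouse left out its log2 fold change ranged from 2.36 to 7.10, the highest without Young A, where both young mice left were at 0. Ocln had too few counts to be tested once the cells were thinned to equal totals, and also without Aged A or without Aged D. Cgn fell below the count filter here. It had 0 UMIs in the 3 young mice and 25 in the aged mice (5.51, 2.76, 9.23 and 2.85 CPM), at least 2.05-fold higher when 3 UMIs over the young mice are taken as the limit of a count of 0.

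The remaining members did not separate the ages in myoepithelial cells. Cldn3 was at 27.4, 19.7 and 35.7 CPM in young and 45.9, 33.8, 49.2 and 20.5 CPM in aged mice, and its log2 fold change of 0.43 (SE 0.33, adjusted p = 0.35) missed the threshold. Cldn7 (log2 fold change -0.23, SE 0.56, adjusted p = 0.79) and Tjp1 (-0.35, SE 0.40, adjusted p = 0.55) overlapped between the ages. Cldn1, with 14 UMIs in all, was not tested.

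Of the 7 members tested in myoepithelial cells, 4 were called and all 4 were higher in aged mice, where a call is an edgeR adjusted p below 0.05 with a difference of at least 1.5-fold. Over all 6740 genes tested in these cells 27.6% were called, 12.8% higher in aged mice, and the CPM of the age groups did not overlap for 34.8%, as for these same 4 members. The median log2 fold change was 1.42 over the 7 members and 0.01 over all genes tested. Ocln, with 4 UMIs in young mice, passed the count filter through the aged mice alone. A gene that passes in this way could only come out higher in aged mice, and the 4 calls and this median include it. Young libraries held only 187, 40 and 54 myoepithelial cells and aged libraries 262, 662, 125 and 340.

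**Figure D2:**
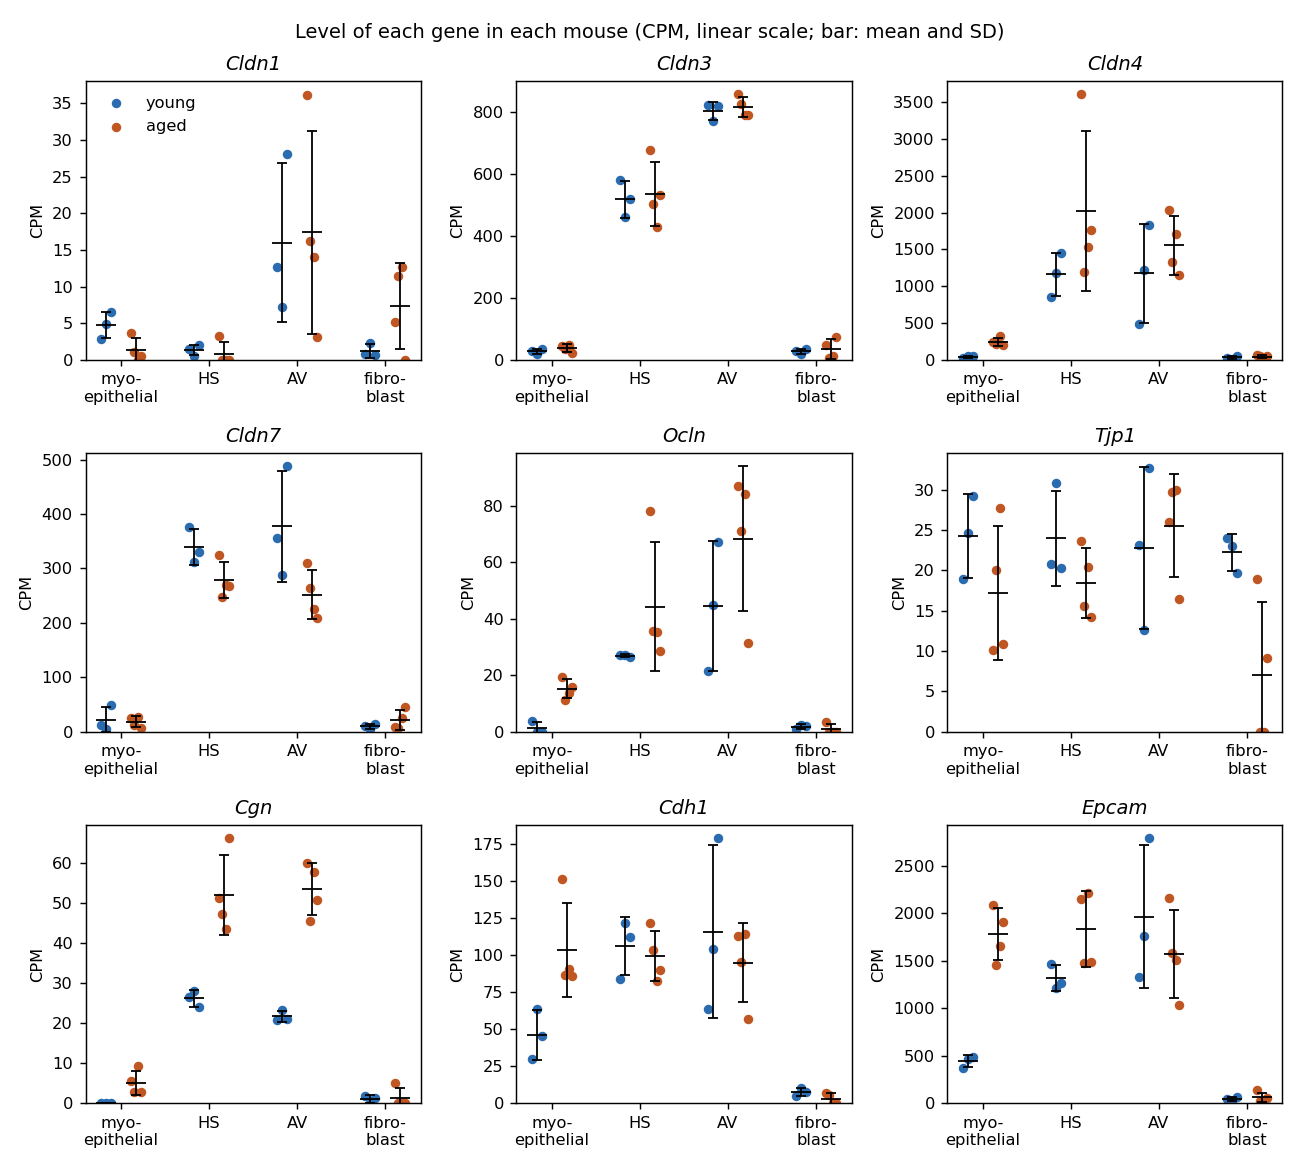
CPM of each gene (1 panel each, linear axes from 0) in myoepithelial, HS, AV and fibroblast cells, with 1 point per mouse (3 young, 4 aged) and bars for mean and SD. In myoepithelial cells the aged points of Epcam (1459 to 2089 CPM) lie above all young points (371 to 484 CPM), and in HS and AV cells those of Cgn do.

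Markers of other cell types were examined in the same myoepithelial cells. Of 6 AV markers, the milk genes Csn3 (log2 fold change 2.63, SE 0.41) and Ltf (3.04, SE 0.75) were called higher and Mfge8 lower in aged mice, and Trf, Wfdc18 and Elf5 were not called. The 6 summed to 1347 to 1427 CPM in young and 1025 to 1680 CPM in aged mice, and none was at 0. Of the 3 luminal keratins, Krt19 was called lower and Krt8 and Krt18 were not called, and their sum was 719 to 1362 CPM in young and 953 to 1643 CPM in aged mice. All 4 fibroblast markers tested and both immune markers tested were lower in aged mice, with fibroblast sums of 442 to 779 CPM against 54.8 to 178 CPM. Myoepithelial markers themselves were abundant in every mouse, summing to 14126 to 21208 CPM in young and 11244 to 13846 CPM in aged mice, with Acta2, Mylk, Myh11, Oxtr and Krt5 called lower and Krt17 higher.

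Because milk genes of AV cells differed with age in the same cells, the fit was repeated, as an alternative chosen after the data were seen, on myoepithelial cells with 0 UMIs of Csn3 and Ltf. These were 82.5% to 88.9% of the myoepithelial cells of a young mouse and 43.1% to 61.6% of those of an aged mouse. Epcam (log2 fold change 2.09, SE 0.22), Cldn4 (2.74, SE 0.31) and Cdh1 (1.21, SE 0.30) remained called in them by edgeR, with adjusted p of 3.1e-06, 8.3e-06 and 0.0053, and Ocln had too few counts to be tested. Over all 18 alternatives the largest adjusted p was 2.5e-04 for Epcam, 2.3e-04 for Cldn4 and 0.039 for Cdh1. Cldn3 and Cldn7 were not called in myoepithelial cells under any alternative in which they had enough counts to be tested. The part of luminal RNA in the member levels of myoepithelial cells was not tested.

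Detection at equal depth gave the same order. The share of thinned myoepithelial cells with an Epcam UMI was 54.3% ± 5.33 in the 3 young and 89.7% ± 5.70 in the 4 aged mice (mean ± SD), against 4.67% ± 2.17 and 10.8% ± 4.94 in fibroblasts. Without thinning it was 84.0% ± 7.91 and 97.4% ± 3.75. For Cldn4 the thinned share was 6.40% ± 1.83 in young and 22.8% ± 4.08 in aged mice, while fibroblasts had 4.25% ± 2.06 and 7.45% ± 1.75. Cldn4 was thus near the fibroblast share in young myoepithelial cells and above it in aged ones. Aged fibroblasts were only 121, 41, 15 and 17 cells in Aged A to D. Other non-epithelial types held more Cldn4 than the 37.1 ± 19.1 CPM of fibroblasts, with 425 ± 416 CPM in T and B and 106 ± 117 CPM in NK cells. Against those types a background was not tested. Cdh1 was found in 11.1% ± 5.76 of young and 17.5% ± 4.50 of aged thinned myoepithelial cells, with overlapping mice. A thinned myoepithelial cell held 0.865 ± 0.112 members in young and 1.43 ± 0.157 in aged mice.

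**Figure D3:**
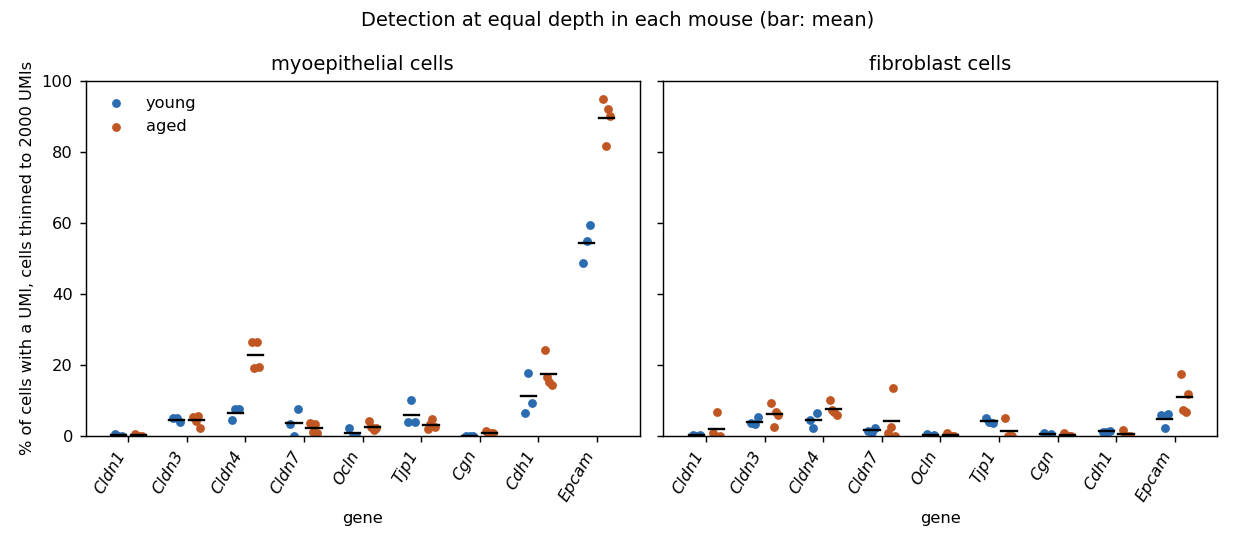
Percent of cells with at least 1 UMI of each gene after thinning every cell to 2000 UMIs, in myoepithelial cells (left) and fibroblasts (right), with 1 point per mouse and a bar at the mean of 3 young or 4 aged mice. In myoepithelial cells the means are 54.3% (young) and 89.7% (aged) for Epcam and 6.40% and 22.8% for Cldn4, while Cldn3 and Cldn7 lie at the level of fibroblasts.

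The mix of the 4 claudins was described per mouse as a percent of their summed UMIs, since each UMI of a 3′ library counts 1 molecule whatever the transcript's length. In myoepithelial cells Cldn4 made up 44.4% ± 15.8 of the claudin UMIs in the 3 young and 81.8% ± 4.60 in the 4 aged mice (mean ± SD), with no overlap (33.3% to 62.5% against 76.6% to 87.8%). The young shares rested on 27, 10 and 14 UMIs of Cldn4, and Cldn3 and Cldn7 could not be told from background in these cells. In AV cells, by contrast, Cldn4 made up 46.6% ± 15.5 and 58.3% ± 5.02, and these ranges overlapped. In aged mice the myoepithelial range lay above that of AV cells (53.4% to 62.8%) and overlapped that of HS cells (61.3% to 78.2%), whose highest value was that of Aged A. The Cldn7 share was 16.4% ± 4.39 in young and 9.59% ± 1.07 in aged AV cells, and 17.0% ± 3.27 and 10.6% ± 2.56 in HS cells, with no overlap between the ages in either type and no test. Each share depends on the other claudins too, and no share of non-overlap over all genes was computed for such a mix. The level of Cldn7 itself was not called by edgeR in AV (log2 fold change -0.33, SE 0.21, adjusted p = 0.40) or HS cells (-0.18, SE 0.14, adjusted p = 0.50).

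**Figure D4:**
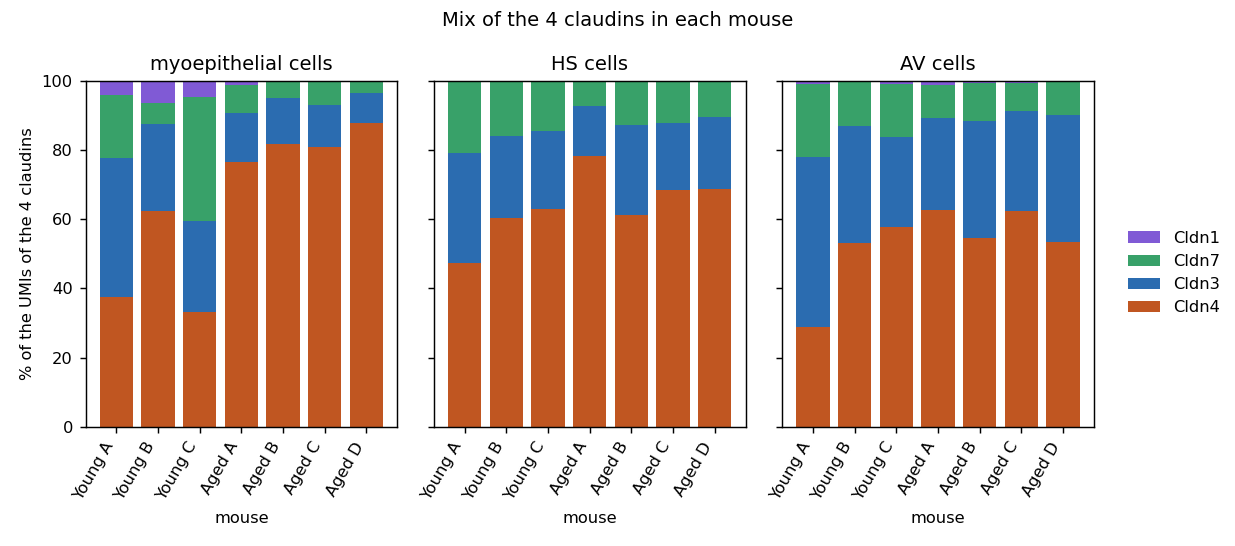
Stacked percent of the summed UMIs of Cldn4, Cldn3, Cldn7 and Cldn1 in each of the 7 mice, in myoepithelial, HS and AV cells. In myoepithelial cells Cldn4 takes 33.3% to 62.5% in the young and 76.6% to 87.8% in the aged mice, and in AV cells 28.9% to 57.8% and 53.4% to 62.8%.

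In the luminal types 1 member was called, the scaffold gene Cgn. In AV cells it stood at 20.8, 23.4 and 21.1 CPM in young and 60.1, 45.7, 57.7 and 50.9 CPM in aged mice. The young mice lay close together and below every aged mouse, with a log2 fold change of 1.59 (SE 0.21, adjusted p = 0.0022). In HS cells Cgn stood at 26.6, 28.1 and 24.0 CPM in young and 51.2, 47.2, 43.5 and 66.2 CPM in aged mice. Again no aged mouse reached down to the young range, and the log2 fold change was 1.11 (SE 0.20, adjusted p = 0.012). The HS call was lost with the label letters as a replicate block (log2 fold change 0.93, adjusted p = 0.061) and without Young C (1.06, adjusted p = 0.069, where the 17 alternatives ranged from 1.2e-04 to 0.069). The thinned share of cells with Cgn was 4.27% ± 1.92 in young and 9.46% ± 1.22 in aged AV cells (11.6% ± 0.875 and 30.3% ± 3.46 without thinning), against 0.358% and 0.207% of thinned fibroblasts.

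The other members were not called in luminal cells. In HS cells 1 of 8 members tested was called, against 6.26% of 8457 genes (3.93% higher in aged mice), and in AV cells 1 of 9, against 6.16% of 11012 genes (2.90% higher). In HS cells Ocln (27.3, 27.1 and 26.5 CPM against 78.0, 35.5, 35.3 and 28.4 CPM) and Epcam (1470, 1216 and 1268 CPM against 2150, 1480, 2209 and 1488 CPM) did not overlap between the ages, but neither passed the test. Their log2 fold changes were 0.83 (SE 0.26, adjusted p = 0.086) and 0.58 (SE 0.17, adjusted p = 0.071). Groups that do not overlap were found for 22.0% of all genes tested in HS cells and 25.6% in AV cells. Cldn4 had a log2 fold change of 0.87 in HS cells (SE 0.32, adjusted p = 0.13) and 0.66 in AV cells (SE 0.38, adjusted p = 0.34).

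Young A stood apart among the AV libraries, with the lowest Cldn4 (485 CPM), Ocln (21.4 CPM) and Epcam of the young mice, while Young C had the highest Cldn7 (488 CPM), Cdh1 (179 CPM) and Epcam (2793 CPM) of all 7. Epcam in AV cells was at 1333, 1764 and 2793 CPM in young and 2155, 1586, 1513 and 1034 CPM in aged mice. The spread within each age exceeded the difference between them, with a log2 fold change of -0.07 (SE 0.29, adjusted p = 0.93). For Cdh1 the log2 fold change was 0.02 (SE 0.19) in HS and -0.04 (SE 0.34) in AV cells. In AV cells all 5 fibroblast markers and all 5 HS markers were lower in aged mice, with fibroblast sums of 84.5 to 381 CPM in young and 9.67 to 33.2 CPM in aged mice. In HS cells the myoepithelial keratins Krt14 and Krt17 and the fibroblast gene Dcn were higher and the myoepithelial actin Acta2 was lower in aged mice, and the 7 myoepithelial markers summed to 23.0 to 43.4 CPM in young and 42.1 to 147 CPM in aged mice. The part of these markers in the member levels was not tested.

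**Figure D5:**
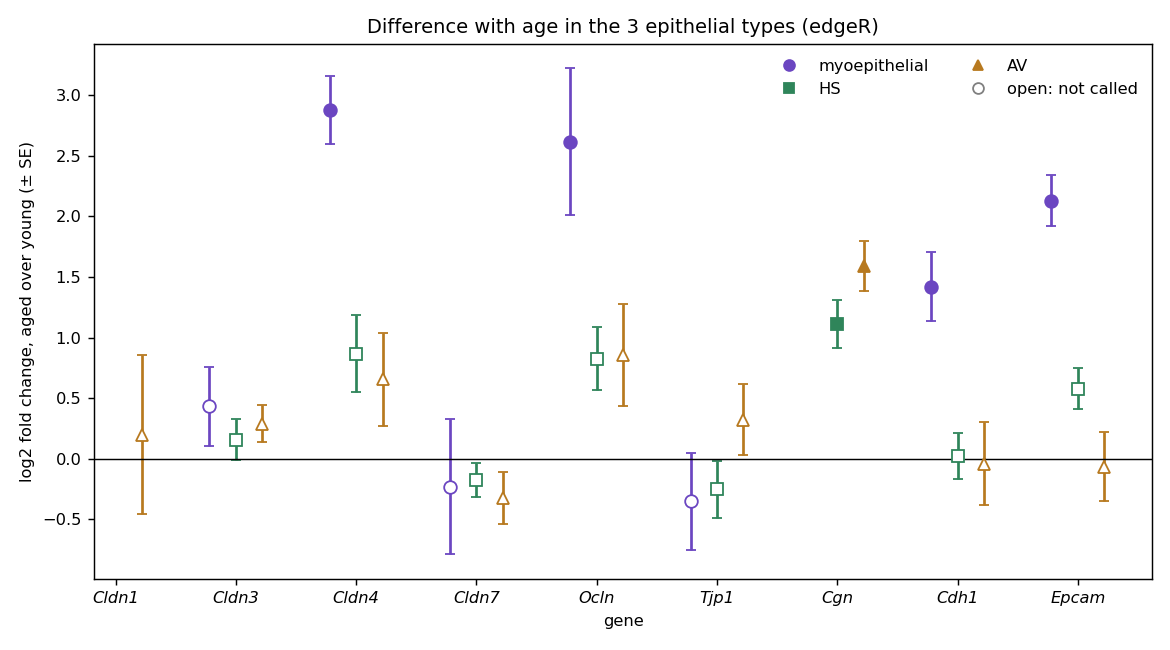
Log2 fold change of aged over young mice (edgeR, error bars 1 SE) for each member that could be tested in myoepithelial (circles), HS (squares) and AV cells (triangles), with filled symbols for called differences. Cldn4, Ocln, Cdh1 and Epcam are filled in myoepithelial cells alone (1.42 to 2.88), and Cgn in HS (1.11) and AV cells (1.59).

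Whether the age differences themselves differed between epithelial types was tested as an interaction with the mouse as a block. The difference in Epcam was smaller in HS than in myoepithelial cells by 1.75 on the log2 scale (value -1.75, adjusted p = 2.9e-04) and smaller in AV than in myoepithelial cells (-2.24, adjusted p = 1.3e-05). For Cldn4 the values were -2.11 (adjusted p = 7.7e-04) and -2.03 (adjusted p = 8.0e-04). For Cdh1 they were -1.43 (adjusted p = 0.011) and -1.36 (adjusted p = 0.012), and without Young C the second was -0.97 (adjusted p = 0.13, in a range of 2.3e-04 to 0.13 over 9 alternatives). These were 3 of 9 members in both contrasts, where 8.18% and 10.7% of 10079 genes passed. For Ocln the interaction was not called (-1.90, adjusted p = 0.17 and -1.69, adjusted p = 0.21). Between AV and HS cells 0 of 9 members passed in edgeR, 0 also at an unadjusted p below 0.05, against 2.48% of all genes, and for Cgn the AV minus HS value was 0.54 (SE 0.31, adjusted p = 0.42). Against myoepithelial cells the Cgn values were -5.47 in HS (SE 2.09, adjusted p = 0.11) and -4.93 in AV cells (SE 2.23, adjusted p = 0.16). Neither was called, and both rest on 0 UMIs of Cgn in young myoepithelial cells, so its age difference is not shown to be particular to luminal cells.

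Tjp1 was the 1 member called in a stromal type. In vascular endothelial cells it stood at 110, 103 and 100 CPM in young and 33.9, 67.7, 41.0 and 33.0 CPM in aged mice. Every aged mouse lay below the young ones, with a log2 fold change of -0.90 (SE 0.21, adjusted p = 0.0058), called under 16 of 17 alternatives. This was 1 of 5 members tested there, against 26.7% of 7864 genes called, 12.0% lower in aged mice, and 44.8% not overlapping. The 5 endothelial markers summed to 2072 to 2301 CPM in young and 1836 to 2078 CPM in aged mice, and pericyte markers, whose cells also hold Tjp1, to 98.6 to 346 CPM against 5.59 to 66.8 CPM, and their part in the Tjp1 value was not tested. Thinned to equal depth, 20.3% ± 1.63 of young and 8.46% ± 2.33 of aged endothelial cells had a Tjp1 UMI (38.4% ± 2.73 and 21.5% ± 5.48 without thinning). In pericytes Tjp1 (73.8, 73.6 and 64.0 CPM against 16.8, 31.8, 50.9 and 51.5 CPM) did not pass (log2 fold change -0.73, SE 0.35, adjusted p = 0.18).

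No member was called in the other stromal types in edgeR. In fibroblasts 0 of 4 members tested passed (0 at an unadjusted p below 0.05 and 0 in DESeq2, against 3.17% of genes). In pericytes 0 of 2 passed (Epcam alone at an unadjusted p below 0.05, adjusted p = 0.055, 0 in DESeq2, against 11.8%), and in T and B cells 0 of 2 (0 and 0, against 0.656%). In Mb macrophages no member had enough counts to be tested.

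Of 58 other junction genes, 37 were tested in myoepithelial cells, and 5 were higher and 7 lower in aged mice, a share of 32.4% beside the 27.6% of all genes (12.8% higher and 14.8% lower). Their median log2 fold change was -0.06, and without Aged D 7 of them were called. Among those higher were the plakophilins Pkp4, with a log2 fold change of 1.29 (SE 0.25), and Pkp3, and alpha-catenin Ctnna1 at 0.92 (SE 0.21), which links cadherins to actin. Lower were the nectins Pvrl1 (Nectin1) at -1.08 (SE 0.23) and Pvrl2 (Nectin2) at -0.91 (SE 0.28), Spint2, a protease inhibitor, at -0.82 (SE 0.17), and P-cadherin Cdh3, the cadherin typical of myoepithelial cells, at -0.74 (SE 0.23). Cdh3 was at 52.9, 59.0 and 64.9 CPM in young and 34.0, 33.4, 26.2 and 32.5 CPM in aged mice, opposite in direction to Cdh1. Pkp3, Amotl1, Cldn5 and Mllt4 (Afdn), called as well, are named after their values were seen.

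Other junction genes were also called in luminal cells. In HS cells these were 2 of 46 tested (4.35%, beside 6.26% of all genes), the plakophilin Pkp2, higher at 0.81 (SE 0.18), and Cldn5, lower at -2.88 (SE 0.44). In AV cells they were 2 of 52 (3.85%, beside 6.16% of all genes), Cldn8, higher at 1.44 (SE 0.26), and Cldn5, lower at -2.82 (SE 0.41). Cldn8 stood at 8.66, 12.6 and 9.09 CPM in young and 19.1, 25.7, 17.3 and 23.8 CPM in aged AV cells. Cldn5 is the claudin of endothelium, at 1898 to 2764 CPM in vascular endothelial cells of young and 454 to 848 CPM in those of aged mice, and at 11.6 to 16.4 CPM in young and 0 to 3.25 CPM in aged HS cells. In HS cells Cldn5 passed the count filter through the young mice alone. It could therefore only come out lower in aged HS cells, and the 2 calls there include it. The part of endothelial RNA in the Cldn5 levels was not tested.

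Of 17 transcription and splicing regulators of epithelial genes, 7 were tested in myoepithelial cells and 3 were called, all higher in aged mice. Of all genes tested there, 27.6% were called and 12.8% were higher in aged mice. These were Elf3 (log2 fold change 1.87, SE 0.42), Ehf (2.45, SE 0.69) and Ovol1 (1.63, SE 0.40), factors known from epithelial differentiation. Ovol1 stood at 15.1, 0 and 13.0 CPM in young and 50.5, 32.0, 32.3 and 29.7 CPM in aged mice, and Elf3 overlapped, with Young B at 29.5 CPM and Aged C at 26.2 CPM. With 0 CPM in Young B, Ovol1 passed the count filter through the aged mice, which favours a call higher in aged mice. In HS cells 1 of 10 was called (6.26% of all genes), Klf4, higher at 0.88 (SE 0.21). In AV cells 1 of 13 was called (6.16% of all genes), the repressor Zeb2, at 3.46, 14.4 and 10.3 CPM in young and 0.494, 0.598, 0.545 and 0.806 CPM in aged mice, beside the fibroblast and immune markers that were lower in the same cells. Zeb2 passed the count filter through the young mice alone, so it could only come out lower in aged mice. Of the 11012 genes tested in AV cells, 359 were called lower in aged mice.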

How the data were processed

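Dissociated mammary cells of 3 young and 4 aged mice were captured with 10x 3′ chemistry. The submitters' processing notes name Cell Ranger 2.0 and mm10. The count matrix deposited by the authors holds unnormalized UMIs, after filters on UMIs, genes and the fraction of mitochondrial UMIs, with the cell type of each cell from Seurat clusters. The deposited fraction and the deposited cell cycle phase were not used.

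For each type, the UMIs of a mouse's cells (3 or more) were added up, low genes were removed with filterByExpr, TMM factors were applied and the quasi-likelihood test of edgeR 4.0.16 was run in R 4.3.3, with Benjamini-Hochberg adjustment over all genes tested. A call needed an adjusted p below 0.05 and a 1.5-fold difference. Printed CPM are unscaled, while fold changes come from the TMM fit. The interaction of age and cell type was fitted over myoepithelial, HS and AV sums with the mouse as a block. HS-AV cells, with at most 6 cells in an aged mouse, were described by levels only, as were Ma macrophage, dendritic, NK and lymphatic endothelial cells, which had fewer than 3 mice of an age with 3 cells. On simulated data with 200 changed genes the fits recovered 83% of them in myoepithelial, 87.5% in HS and 82.5% in AV cells. These fits covered 6740, 8457 and 11012 genes and gave 11, 10 and 3 false calls. Recovery of differences as small as those of the uncalled members was not tested. Doublets were called per mouse with Scrublet in scanpy 1.11.5 at an expected rate of 0.06. The p-values measure the spread between these mice, and intervals and limits for a count of 0 cover counting error only.

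All 9 members, every called junction or regulator gene in the 3 epithelial types (at most 8 per list and type by adjusted p) and the genes most like the members over cell types (Pearson correlation of mean log2 of CPM plus 1) were named, except for some genes that are not reported here. The members and lists were chosen with earlier results of these data known. Alternatives were no count filter, RLE factors, DESeq2 1.42.0, an adjusted p alone, at least 1.25-fold between each young and each aged mouse, at least 10 cells per mouse, no ribosomal and mitochondrial genes, equal totals, no doublets, a replicate block of the label letters and each mouse left out. An adjusted p alone and at least 10 cells per mouse repeat the main fit in the types with called members. A called member therefore stays called under both by design. The fold between each pair of mice uses the p-values of the main fit.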

Additional observations from a re-analysis of the deposited data

Results flagged for a closer look

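In 3 of 27 sets of 4 aged mice, 1 mouse lay far from the other 3 by Dixon's test, which chance does in about 1 in 20 sets, and it was Aged A each time. Cdh1 in myoepithelial cells was 152 CPM in Aged A. Ocln in HS cells was 78.0 CPM in Aged A. Cldn1 in HS cells was 3.25 CPM in Aged A, from 4 UMIs, and 0 in the other aged mice, so that Dixon's ratio is 1 whatever the level in Aged A and this set is no sign of an unusual mouse.

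The age difference on the log2 scale differed between epithelial types for 3 members by the interaction test. HS minus myoepithelial cells gave -2.11 for Cldn4, -1.75 for Epcam and -1.43 for Cdh1. AV minus myoepithelial cells gave -2.03 for Cldn4, -2.24 for Epcam and -1.36 for Cdh1.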

How the results depend on the processing

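The 4 members called in myoepithelial cells were 3 to 5 under every alternative, and the 1 in AV cells stayed 1. In HS cells the count of 1 became 3 with no count filter (Cldn4 and Ocln added) and 0 with the replicate block. The label letters do not pair the mice (correlations of deviations from -0.163 to 0.067), and the replicate block gave 4 and 1 members in myoepithelial and AV cells. The 12 other junction genes in myoepithelial cells became 7 in DESeq2, 7 at equal totals and 6 with the replicate block. The 2 in HS cells became 7 with no filter, 1 at equal totals and 1 with the block, and the 2 in AV cells became 4 with no filter, 5 in DESeq2 and 0 at equal totals, where fewer genes had enough counts. Other causes were not tested.

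Leaving out each mouse gave 3 to 4 members in myoepithelial, 0 to 1 in HS (0 without Young C) and 1 to 1 in AV cells, and 7 to 11, 1 to 3 and 1 to 2 other junction genes. Without Young C, Cldn4 in vascular endothelial cells was called higher (1.33). Tjp1 in vascular endothelial cells was not called where a minimum fold was asked between each young and each aged mouse. Members that were not called changed sign in log2 fold change. These were Cldn3 in myoepithelial cells without doublets (-0.19), Cldn7 in myoepithelial cells with the replicate block (0.32), Cdh1 in HS cells with no filter (-0.037) and in AV cells at equal totals (0.026) and with the block (0.25), and Epcam in AV cells with the block (0.12). With each mouse left out, Cldn7 in myoepithelial cells ranged from -0.81 to 0.72, Cdh1 in HS cells from -0.16 to 0.15 and in AV cells from -0.36 to 0.49, Cldn1 in AV cells from -0.44 to 0.95, Epcam in AV cells from -0.30 to 0.29 and in fibroblasts from -0.22 to 1.35, and Cldn4 and Cldn3 in vascular endothelial cells from -0.13 to 1.33 and from -0.35 to 0.053. Depth limits Cldn1, Cgn and Ocln in myoepithelial cells most, with 14, 25 and 95 UMIs in all.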
